A study of Solanum lycopersicum with 21 samples.

Results

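PR1a, PR1b1 and a β-1,3-glucanase are 3 pathogenesis-related (PR) transcripts of tomato leaves, and their levels were followed across 7 groups of plants. They were taken by name, as the probe sets of PR1a (Solyc01g106620, array symbol LOC100191111), PR1b1 (Solyc00g174330) and a β-1,3-glucanase (LOC101261650). These are 3 of the 67795 probe sets with deposited values from the Affymetrix GeneChip for tomato genes. The study's methods state fewer probe sets for this array, and shares of all probe sets here are taken over the 67795. A probe set is a group of short probes that together read one transcript, and its value is a log2 intensity. They were named with earlier results of these data known, and all 3 were among the genes that the study had selected after BP178 on these arrays.

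PR proteins accumulate in plants that are attacked by pathogens or treated with defense elicitors, and many of them are secreted into the space between cells. PR1 proteins are small cysteine-rich proteins that bind sterols, and they are widely used as markers of defense. The PR2 family is made up of β-1,3-glucanases, enzymes that cut a glucan of fungal cell walls, and in tobacco basic and acidic forms of these families are known to respond to different hormones, with salicylic acid, jasmonic acid and ethylene as the main ones.

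All plants were tomato of cv. Rio Grande, about 4 weeks old, and leaves were taken 24 h after treatment. In experiment 1, plants received BP178 at 125 µM, salicylic acid (SA) at 2.5 mM, jasmonic acid (JA) at 2.5 mM, ethylene made from ethephon at 1 mM in a phosphate buffer at 2.5 mM, or distilled water as the non-treated control (NTC). In experiment 2, plants received flg15 at 125 µM or water. BP178 is a synthetic hybrid of the antibacterial peptide BP100 and part of magainin, and flg15 is a short stretch of flagellin, the bacterial protein that many plants perceive as a sign of infection. Each group had 3 arrays, each with RNA pooled from 10 plants, so a value describes a pool and not a plant. The labels describe the ethylene plants as sprayed, whereas the methods describe a sealed chamber, and the controls are described as receiving water only, so the chamber and the ethylene cannot be told apart.

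The lowest and highest values on any array were 0.956 and 13.8, and array medians lay between 2.63 and 2.85, so most probe sets were dim. Leaf identity was visible in all groups, since the mean level of RBCS-1, a Rubisco small subunit, lay between 11.3 and 11.7 and that of CAB4, a chlorophyll-binding protein, between 11.9 and 12.5. Of the 3 leaf photosynthesis probe sets, 0 were called in any of the 5 treatments, although CAB4 was at -0.60 after SA (adjusted p = 0.00086), below the fold threshold. The median change over all probe sets lay between -0.02 and 0.02 in every treatment. In leaf RNA, a change in the share of cells of a type and a change in RNA per cell cannot be told apart.

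PR1a was well above the array medians in most groups and differed widely between them. In the NTC of experiment 1 its log2 values were 7.43, 6.28 and 6.30 (mean 6.67 ± 0.66, SD, n = 3). The BP178 arrays had 8.46, 8.30 and 8.06 (8.27 ± 0.20), all above the highest NTC array. The SA arrays had 6.99, 6.53 and 6.99 (6.84 ± 0.26) and lay within the range of the NTC. PR1a was highest after JA, with 8.87, 8.74 and 9.33 (8.98 ± 0.31), and after ethylene, with 9.29, 8.68 and 8.65 (8.88 ± 0.36). In experiment 2 the NTC arrays had 3.65, 2.95 and 4.40 (3.66 ± 0.72), far below those of experiment 1, and the flg15 arrays had 6.96, 6.44 and 6.45 (6.62 ± 0.30), with no overlap.

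PR1b1 was close to the array medians in all groups. The NTC arrays of experiment 1 had 2.56, 1.92 and 2.18 (2.22 ± 0.32) and those of experiment 2 had 2.37, 2.52 and 1.68 (2.19 ± 0.45). The BP178 arrays, with 3.58, 3.78 and 3.42 (3.59 ± 0.18), were the highest of PR1b1 apart from one SA array. That array held 3.68, next to 2.69 and 2.82 in the other SA arrays (3.06 ± 0.54), so the SA group was spread more widely than the rest. The JA arrays had 2.56, 2.18 and 2.96 (2.57 ± 0.39), the ethylene arrays 2.80, 2.35 and 2.63 (2.59 ± 0.23) and the flg15 arrays 2.21, 2.17 and 2.35 (2.24 ± 0.09), and these groups overlapped with their NTC. Whether PR1b1 lies above the background of the array in the control leaves was not tested, since the deposited values hold no background measure.

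The β-1,3-glucanase was the brightest of the 3 probe sets in every group, although levels of different probe sets cannot be compared as amounts of RNA. The NTC arrays of experiment 1 had 10.25, 9.42 and 9.61 (9.76 ± 0.44). The BP178 arrays had 11.65, 11.50 and 11.25 (11.47 ± 0.20), the JA arrays 11.54, 11.57 and 11.74 (11.62 ± 0.11) and the ethylene arrays 11.66, 11.57 and 11.70 (11.64 ± 0.07). These 9 arrays were all above the highest NTC array. The SA arrays had 9.45, 9.66 and 9.92 (9.68 ± 0.24) and overlapped with the NTC. In experiment 2 the glucanase held 5.68, 6.61 and 6.14 in the NTC (6.14 ± 0.46) and 9.78, 9.47 and 9.38 after flg15 (9.54 ± 0.21), with no overlap.

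**Figure D1:**
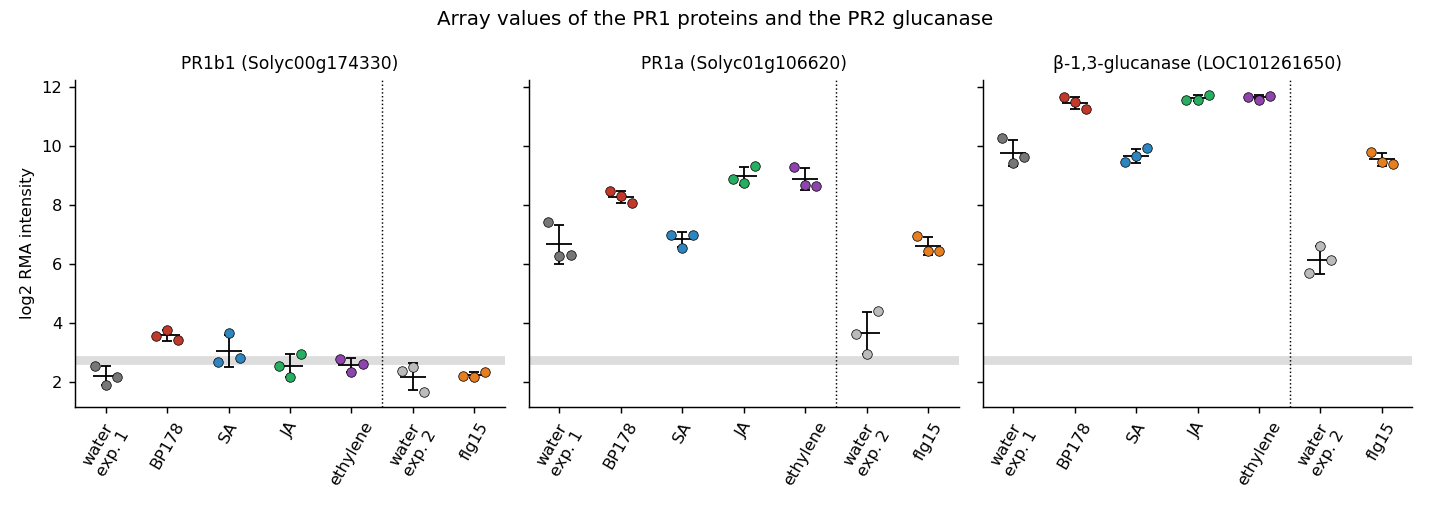
Log2 RMA intensity of PR1b1, PR1a and the β-1,3-glucanase (y axis) in the 7 groups (x axis), with one point per array, a bar for the mean and whiskers for the SD (n = 3), experiment 2 to the right of the dotted line and the range of the array medians (2.63 to 2.85) shaded. PR1b1 stays between 1.68 and 3.78, whereas PR1a and the glucanase are lowest in the NTC of experiment 2, at means of 3.66 and 6.14.

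The comparison of each treatment with the NTC of its own experiment asked whether the spray changed these transcripts. A probe set was called changed at an FC (fold change) of at least 2 with an adjusted p below 0.05 in limma's moderated test, two-sided, over all probe sets. The 4 treatments of experiment 1 share the same 3 NTC arrays, so their changes are not independent of each other.

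After BP178, all 3 transcripts were overexpressed. PR1a rose by 1.60 on the log2 scale (SE 0.32, FC 3.04, adjusted p = 0.0436). PR1b1 rose by 1.37 (SE 0.26, FC 2.59, adjusted p = 0.0266). The glucanase rose by 1.71 (SE 0.22, FC 3.26, adjusted p = 0.00079). Over all probe sets 84, or 0.124%, were called higher after BP178, against 3 of the 3 transcripts. Since the study had selected the transcripts for this rise on the same arrays, the count is a description and not independent evidence. For PR1b1 the FC was taken over dim values, since all 3 NTC arrays lay below the median of their array and all 3 BP178 arrays above it. With values below the array median raised to it, PR1b1 was higher by 0.83 (adjusted p = 0.0437), below the fold threshold. The call of the glucanase held without each array in turn, at an adjusted p of at most 0.011. The calls of PR1a and PR1b1 were each lost in 5 of 6 omissions, namely without any one BP178 array or without NTC array 2 or 3. Changes of PR1a then ranged from 1.41 to 1.71 with adjusted p from 0.10 to 0.255, and those of PR1b1 from 1.23 to 1.46 with adjusted p from 0.0662 to 0.184. Without NTC array 1, which had the highest PR1a value of its group, PR1a rose by 1.98 (adjusted p = 0.00964).

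After SA, 0 of the 3 transcripts were called, whereas 2.26% of all probe sets were called higher and 2.12% lower. PR1a differed from the NTC by 0.17 on the log2 scale (95% confidence interval -0.51 to 0.84, adjusted p = 0.916). The glucanase differed by -0.09 (interval -0.54 to 0.36, adjusted p = 0.943). PR1b1 was higher by 0.84 (SE 0.26, adjusted p = 0.0404), which is an FC of 1.79 and so below the fold threshold, and its 3 SA arrays lay above the 3 NTC arrays by a gap of 0.13. Without NTC array 1 the PR1b1 change was 1.01 (adjusted p = 0.0258) and without SA array 1 it was 1.03 (adjusted p = 0.0212), and PR1b1 was then called. Without SA array 2, the highest of them, it was 0.53 (adjusted p = 0.286).

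After JA, 2 of the 3 transcripts rose, against 1.64% of all probe sets. PR1a rose by 2.31 (SE 0.32, FC 4.96, adjusted p = 4.6e-05). The glucanase rose by 1.86 (SE 0.22, FC 3.62, adjusted p = 5.2e-06). PR1b1 differed by 0.35 (interval -0.19 to 0.89, adjusted p = 0.588). JA was also the treatment after which MTS1, a monoterpene synthase of leaf trichomes (gland hairs), rose by 2.88 (adjusted p = 6.1e-07), while MTS2, the other trichome probe set, differed by 0.15 (adjusted p = 0.683). MTS1 was at 2.20 in the NTC and 5.07 after JA, and its part in the PR changes was not tested. MTS1 was not called after ethylene or BP178, at -0.08 and -0.11, and its levels there were dim, at 2.12 and 2.08.

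After ethylene, the same 2 transcripts rose, against 1.18% of all probe sets. PR1a rose by 2.21 (SE 0.32, FC 4.62, adjusted p = 0.00016) and the glucanase by 1.88 (SE 0.22, FC 3.69, adjusted p = 9.5e-06). PR1b1 differed by 0.38 (interval -0.16 to 0.91, adjusted p = 0.592). The calls of PR1a and the glucanase after JA and after ethylene held without each array in turn.

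After flg15, PR1a and the glucanase, 2 of the 3, rose relative to the NTC of experiment 2, against 0.218% of all probe sets. PR1a rose by 2.95 (SE 0.32, FC 7.75, adjusted p = 3.2e-05). The glucanase rose by 3.40 (SE 0.22, FC 10.6, adjusted p = 4.5e-08), its largest change in the 5 treatments. PR1b1 differed by 0.05 (interval -0.48 to 0.59, adjusted p = 0.964). Both calls held without each array in turn. Neither rise was called against the NTC of experiment 1, in a comparison across experiments that was chosen after the data had been seen: that NTC minus flg15 was 0.05 for PR1a (interval -0.62 to 0.72, adjusted p = 0.971) and 0.22 for the glucanase (interval -0.23 to 0.67, adjusted p = 0.71), where 7.21% of all probe sets differed.

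**Figure D2:**
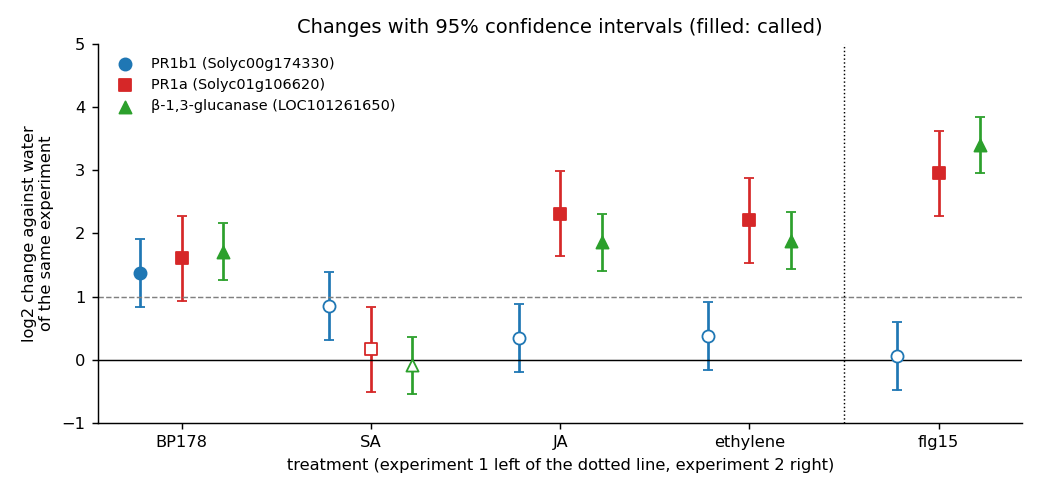
Log2 change against the water control of the same experiment (y axis) for 5 treatments (x axis), with 95% confidence intervals from limma and n = 3 arrays per group, filled symbols for changes that were called and a dashed line at the fold threshold. PR1b1 is filled after BP178 alone, at 1.37, PR1a and the glucanase are filled in 4 of the 5 treatments, and SA has no filled symbol.

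The difference between the water controls is part of every comparison across experiments. PR1a was 3.004 higher (SE 0.32, FC 8.02, adjusted p = 7.2e-06) and the glucanase 3.62 higher (SE 0.22, FC 12.3, adjusted p = 3.8e-09) in the NTC of experiment 1 than in that of experiment 2. PR1b1 differed by 0.03 (interval -0.51 to 0.57, adjusted p = 0.984). So 2 of the 3 transcripts were higher, against 2.37% of all probe sets at an adjusted p below 0.05. The glucanase was at 9.76 in water-treated leaves of experiment 1 and at 9.54 in flg15-treated leaves of experiment 2. Growth, sampling and processing of the experiments cannot be told apart in this difference.

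Within experiment 1, direct contrasts between treatments asked whether their levels differed, with the adjusted p over all probe sets of each contrast. BP178 and SA differed in PR1a by 1.44 (SE 0.32, adjusted p = 0.00504) and in the glucanase by 1.79 (SE 0.22, adjusted p = 6.3e-06), both higher after BP178, as were 5.34% of all probe sets. In PR1b1 they differed by 0.53 (interval -0.01 to 1.07, adjusted p = 0.285), so a difference between BP178 and SA was not shown for it. Without SA array 2 that difference was 0.84 (adjusted p = 0.0445).

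PR1b1 was higher after BP178 than after JA by 1.03 (SE 0.26, adjusted p = 0.0156), as were 4.39% of all probe sets, and than after ethylene by 1.00 (SE 0.26, adjusted p = 0.0347), as were 1.63%. The difference from JA lost its call without BP178 array 2, at 0.93 (adjusted p = 0.0771), and without JA array 2, at 0.83 (adjusted p = 0.0912). The difference from ethylene lost its call without any one of the 6 arrays, with values between 0.88 and 1.10 and adjusted p between 0.0517 and 0.165. For PR1a, BP178 differed from JA by -0.71 (interval -1.38 to -0.03, adjusted p = 0.269) and from ethylene by -0.60 (interval -1.28 to 0.07, adjusted p = 0.53). For the glucanase these differences were -0.15 (interval -0.60 to 0.30, adjusted p = 0.832) and -0.18 (interval -0.63 to 0.27, adjusted p = 0.891).

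SA stood below both other hormones in PR1a and the glucanase. PR1a was lower after SA than after JA by 2.14 on the log2 scale, since SA minus JA was -2.14 (adjusted p = 8.7e-05), and SA minus ethylene was -2.04 (adjusted p = 0.000129). For the glucanase the values were -1.94 (adjusted p = 1.8e-06) and -1.97 (adjusted p = 1.4e-06). Of all probe sets 4.01% were lower after SA than JA and 7.04% than ethylene. For all 3 transcripts JA and ethylene did not differ at an adjusted p below 0.05, as 7.53% of all probe sets did. JA minus ethylene was 0.10 for PR1a (interval -0.57 to 0.78, adjusted p = 0.924), -0.03 for the glucanase (interval -0.48 to 0.42, adjusted p = 0.972) and -0.03 for PR1b1 (interval -0.57 to 0.51). For PR1b1, SA minus JA was 0.50 (interval -0.04 to 1.03, adjusted p = 0.353) and SA minus ethylene 0.47 (interval -0.07 to 1.01, adjusted p = 0.32).

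Ordered by mean level, PR1a ran from JA (8.98) and ethylene (8.88) through BP178 (8.27) to SA (6.84), the NTC of experiment 1 (6.67) and flg15 (6.62), with the NTC of experiment 2 last (3.66). The neighbours JA and ethylene, ethylene and BP178, SA and NTC, and NTC and flg15 did not differ beyond their spread, whereas BP178 differed from SA and flg15 from the NTC of experiment 2. The glucanase ran from ethylene (11.64), JA (11.62) and BP178 (11.47) to the NTC of experiment 1 (9.76), SA (9.68), flg15 (9.54) and the NTC of experiment 2 (6.14), where the steps lay between BP178 and the NTC of experiment 1 and between flg15 and the NTC of experiment 2. In PR1b1 the order was BP178 (3.59), SA (3.06), ethylene (2.59), JA (2.57), flg15 (2.24), the NTC of experiment 1 (2.22) and that of experiment 2 (2.19), and no pair of neighbours differed beyond the spread. The neighbours SA and flg15 (13.6% of all probe sets differed), JA and flg15 (10.7%), the NTC of experiment 1 and flg15, and both NTC groups belong to different experiments.

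The flg15 response was also set against each experiment 1 response, each change taken against its own NTC. The change of the glucanase was greater after flg15 than after BP178 by 1.69 (adjusted p = 0.0358), than after SA by 3.49 (adjusted p = 1.6e-07), than after JA by 1.54 (adjusted p = 0.00456) and than after ethylene by 1.52 (adjusted p = 0.00763). Shares of all probe sets with a greater change after flg15 were 0.0546% for BP178, 2.04% for SA, 1.4% for JA and 0.915% for ethylene. For PR1a the change was greater by 2.79 than after SA (adjusted p = 0.00046), and differed by 1.35 from BP178 (adjusted p = 0.34), 0.65 from JA (adjusted p = 0.639) and 0.75 from ethylene (adjusted p = 0.48). For PR1b1 the change was smaller by values of -1.32 (BP178, adjusted p = 0.22), -0.79 (SA, adjusted p = 0.339), -0.29 (JA, adjusted p = 0.83) and -0.32 (ethylene, adjusted p = 0.752), and 0 of the 4 passed. These differences include that of the water controls. The difference between flg15 and BP178 in the glucanase lost its call in 8 of 12 omissions of an array, at adjusted p up to 0.106.

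**Figure D3:**
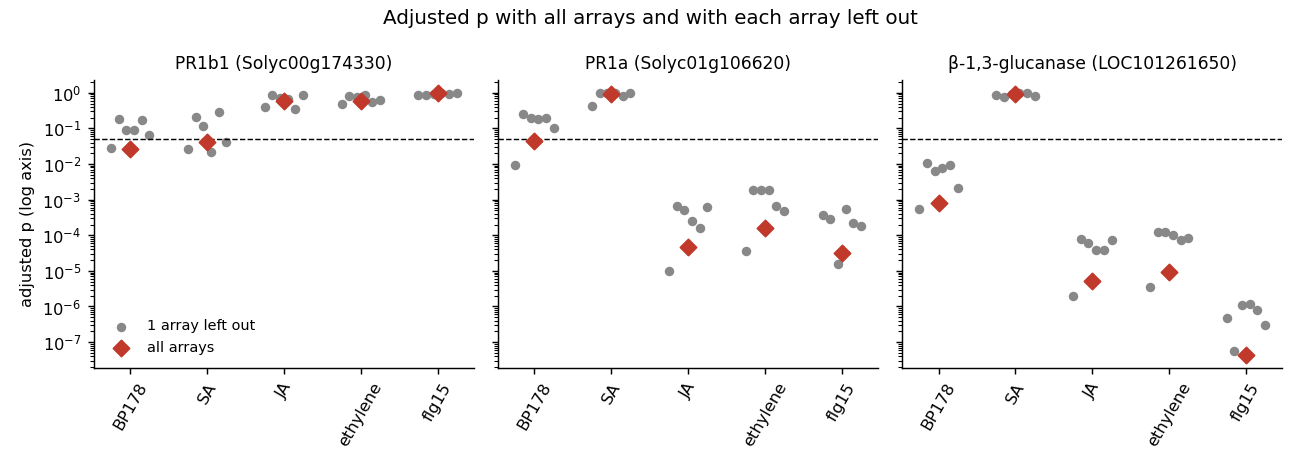
Adjusted p (y axis, log scale) of the change of each transcript against its own water control for 5 treatments (x axis), with red diamonds for all arrays and grey points for the fits with 1 array left out, and a dashed line at 0.05. For PR1a and PR1b1 after BP178, 5 of 6 grey points lie above the line, whereas all points of the glucanase lie below it except after SA.

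Other probe sets of the PR1 and PR2 families, and one with a gene number next to PR1a, were followed to see how far the pattern of the 3 transcripts was shared. The array annotation names PR-1a1, which is the 2nd gene from PR1a in the RefSeq gene order (assembly SLM_r2.1), and P4, which is the 2nd gene from PR1b1 in that order. P4 lay between 1.62 and 1.80 in all groups and was called in 0 of 5 treatments. PR-1a1 lay between 2.13 and 3.09 and was higher by 0.76 after ethylene (adjusted p = 0.0474), below the fold threshold. Solyc01g106630, which the study's annotation gives as an unknown protein, has the gene number after PR1a. It was known here because the study had selected it after BP178, so its rise there is not independent evidence. It was higher by 1.91 after BP178 (adjusted p = 0.00042), 3.15 after JA (adjusted p = 6.6e-09) and 2.27 after ethylene (adjusted p = 1.2e-06), and its changes after SA (0.56, adjusted p = 0.141) and flg15 (0.79, adjusted p = 0.142) were not called. Its level in the NTC was 3.55 in experiment 1 and 2.84 in experiment 2.

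Among β-1,3-glucanases, LOC101261650 has a second probe set that did not follow the first. Its means lay between 2.11 and 2.60 in the 7 groups and it was called in 0 of 5 treatments, so the probe sets of this gene disagree and the values here are those of the brighter one. Another pair, annotated as glucan endo-1,3-β-glucosidases and known through the study's selection after SA, rose there: LOC101257693 (Solyc01g010310) by 2.36 (adjusted p = 3.6e-09) and LOC101265618 (Solyc12g014420) by 2.25 (adjusted p = 1.1e-07). LOC101257693 also rose after JA by 1.03 (adjusted p = 0.00028), and neither was called after BP178, ethylene or flg15. Both had their largest change after SA, where the glucanase LOC101261650 was at -0.09. Since this pair was known through the selection after SA, the contrast is a description and not independent evidence.

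**Figure D4:**
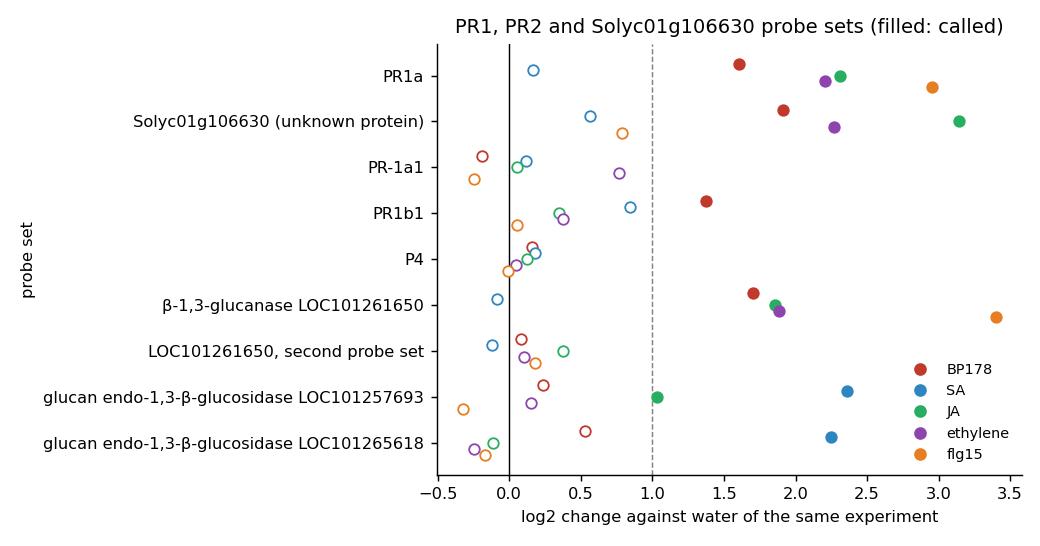
Log2 change against the water control of the same experiment (x axis) for 9 probe sets (y axis), which are PR1 and PR2 genes and Solyc01g106630, an unknown protein, and 5 treatments (colours), with filled points for changes that were called and a dashed line at the fold threshold. PR1a and Solyc01g106630 have filled points after BP178, JA and ethylene. The 2 glucan endo-1,3-β-glucosidases, known through the study's selection after SA, have their largest values there, 2.36 and 2.25.

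Genes near the 3 transcripts in that gene order were counted as well. Of the 5 genes on each side, 6 of 10 had a probe set around PR1a, 7 of 10 around the glucanase and 5 of 10 around PR1b1. Of these, 1, 1 and 0 were called in any treatment, as were 6.94% of all probe sets, and with so few genes nothing is read from the counts. They were LOC101256717, at -1.28 after SA, beside PR1a, and LOC101245489, at -1.37 after SA and -1.13 after JA, beside the glucanase.

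The pattern most like that of PR1a was that of the glucanase, and the reverse. Over the 21 arrays, each minus the mean of its own NTC, Pearson's r between them was 0.93, the highest of 23193 probe sets with 1 gene symbol for either one. Within groups, where treatment plays no part, r was 0.29. These arrays share the NTC of each experiment, so the r values describe the pattern and carry no test. PR1b1 had r of 0.03 with PR1a and 0.05 with the glucanase.

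Next to PR1a came LOC101264959, an osmotin-like protein of the PR5 family (r = 0.89), LOC101267358, a chitinase (r = 0.83), LOC101257118 (r = 0.82) and ME2, a malic enzyme (r = 0.81). LOC101264959 differed from its NTC by 2.14 with BP178, 3.23 with flg15, -0.85 with SA, 2.95 with JA and 4.30 with ethylene. The chitinase, an enzyme that cuts chitin of fungal walls, differed by 1.03, 1.82, 1.13, 2.29 and 1.50 in the same order, so it was also higher by more than 1 with SA, where PR1a differed by 0.17. Next to the glucanase came ME2 (r = 0.91), CEVI-1, a peroxidase (r = 0.88), LOC101261141, a WRKY transcription factor (r = 0.87), and LOC101257981, a zinc transporter (r = 0.87). CEVI-1 differed by 0.95 with BP178, 2.26 with flg15, -1.41 with SA, 1.05 with JA and 0.69 with ethylene. The mean of CEVI-1 was 7.57 in the NTC of experiment 1 and 4.67 in that of experiment 2.

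PR1b1 was most like LOC101244094 (r = 0.83), LOC101257273 (r = 0.81), GGPS1 (r = 0.79), LOC101251341 (r = 0.77) and LOC101256638 (r = 0.76). GGPS1, a geranylgeranyl diphosphate synthase, differed from its NTC by 1.66 with BP178, 0.25 with flg15, 0.95 with SA, 0.14 with JA and 0.10 with ethylene. The changes of LOC101244094 and LOC101256638 were below 0.40 in all 5 treatments.

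Lists of hormone genes describe how the leaves in which the PR transcripts were measured had responded. Symbols were added to these lists after the data had been seen, so their counts are a description and not independent evidence. Of all probe sets, 2.26% were called higher after SA, 1.64% after JA, 1.18% after ethylene, 0.124% after BP178 and 0.218% after flg15. Of 3 probe sets of SA synthesis and signaling with a symbol from the array annotation, 2 rose after SA, 1 after ethylene, 1 after JA, and 0 with either peptide. NIM1, which encodes the SA response regulator NPR1, rose by 1.47 after SA (adjusted p = 1.7e-06) and was at 0.04 after BP178, and WRKY3 rose by 2.17 after SA (adjusted p = 7.6e-07). NIF1, a bZIP transcription factor, and LOC101246812, a WRKY factor, were known through the study's selection after SA and rose there by 2.70 and 2.25. LOC101246812 rose more after JA (5.26) and ethylene (2.85), and NIF1 also rose after ethylene by 1.05. WRKY3 was also the SA probe set of the array annotation that rose after JA (1.15) and ethylene (1.91). After SA, PR1a and the glucanase were not called, and a link to these probe sets was not tested.

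All 6 JA probe sets of the array annotation rose after JA, with a median of 2.84 against 0.02 over all probe sets, and 0 rose after BP178, ethylene or flg15. After SA 1 of them rose (aos, 1.89) and 1 fell (Td, -2.48). Of those 6, 2 fell after ethylene, where PR1a rose as well. Genes of this list that the study's annotation names changed most: LOC101247857, a proteinase inhibitor, rose by 7.80 after JA (adjusted p = 1.5e-07), LOC101265368, another one, by 4.11, LOC101259064, a polyphenol oxidase, by 4.02, and ER1, a proteinase inhibitor, by 4.41. ER1 also rose after BP178 by 1.88 (adjusted p = 0.00116), after ethylene by 3.28 (adjusted p = 3.6e-08) and after flg15 by 1.33 (adjusted p = 0.0138), and was at 0.28 after SA. After flg15, LOC101247857 rose by 3.17 (adjusted p = 0.0465) and LOC101259064 by 2.43 (adjusted p = 0.0234) as well, so 3 of the 4 were called there. The study had selected these 4 genes for their response.

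Of 11 ethylene probe sets of the array annotation, 3 rose after ethylene, 2 after SA, 2 after JA and 0 after BP178 or flg15. With so few probe sets in each hormone list, nothing is read from the counts of 0 after the peptides. Those that rose after ethylene were EBF1 (2.77), ETR4 (2.02) and ETR6 (1.40). ETR4 was not particular to ethylene, since it also rose after SA by 2.00 (adjusted p = 9.8e-07) and after JA by 1.76 (adjusted p = 7.8e-06). Solyc03g111720, a peptide methionine sulfoxide reductase, rose by 3.26 after ethylene (adjusted p = 5.5e-12), 3.29 after SA and 2.07 after JA, and was at 0.50 after BP178 (adjusted p = 0.196). Solyc10g076680 and Solyc09g089580, annotated as oxidases of the last step of ethylene synthesis, and Solyc10g076670 were known through the selection after SA. They rose there by 5.34, 3.66 and 4.40, but were at -0.27, 0.16 and -0.43 after ethylene. After JA they were at 4.68, 0.03 and 3.71. Of the 7 probe sets of this list that the study's annotation names, 1 rose after flg15 (LOC101259698, 2.06, adjusted p = 3.7e-06) and 1 fell (ODD, -1.92, adjusted p = 3.7e-06).

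The PR1b1 probe set is assigned by the study's annotation to Solyc00g174330 and also to Solyc00g174340, so the copies cannot be told apart. A PR1 gene measured by RT-qPCR in the study, Solyc09g007010, was not matched to a probe set and is not analysed here.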

How the data were processed

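Leaf RNA was hybridized to 21 arrays, 3 in each of 7 groups taken from the sample labels. The authors produced the deposited values, which are log2 intensities, with Expression Console, where RMA corrects the background, normalizes between arrays and joins the probes of a set. RMA draws dim values together, which can lower the change of a dim probe set such as PR1b1. The number of arrays limits the precision, since arrays hold no read depth.

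One limma 3.58.1 model (R 4.3.3) took all 67795 probe sets, with a mean per group, a constant prior and 14 residual degrees of freedom. Benjamini-Hochberg adjustment ran over all probe sets of a contrast. Calls against the NTC needed an FC of at least 2 and an adjusted p below 0.05, and contrasts between treatments only the latter. The fit was tested on simulated data.

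Members and lists were chosen with earlier results of these data known, and symbols were added to the lists after the data had been seen. The text names called genes of the PR1 and PR2 lists, up to 4 of each hormone list by largest change, and the 5 most alike probe sets per transcript. PR-1a1, P4, gene neighbours and cell type markers are named in addition, and the phloem marker SUT1 was called in 0 treatments. The array annotation gives 1 symbol for 23194 probe sets and several for 170. Solyc numbers came from the study's annotation of 770 selected probe sets.

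Alternatives changed the normalization (quantile, or centring on array medians), the low values (the dimmest 25% left out, or values below the array median raised to it), the arrays fitted (one experiment, only 2 groups, or all but 1 array), the prior (trended and robust), the weights, the threshold (adjusted p below 0.01), the block and the NTC. Arrays of the same replicate number deviated with r from -0.28 to 0.19 over 33 pairs of arrays, and the numbers were not taken as pairs.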

Additional observations from a re-analysis of the deposited data

Results flagged for a closer look

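In the test of the difference between changes, each against its own NTC, flg15 differed from the treatments of experiment 1 in 5 cases. The glucanase changed more after flg15 than after BP178 by 1.69 (adjusted p = 0.0358), than after SA by 3.49 (adjusted p = 1.6e-07), than after JA by 1.54 (adjusted p = 0.00456) and than after ethylene by 1.52 (adjusted p = 0.00763). PR1a changed more after flg15 than after SA by 2.79 (adjusted p = 0.00046). For PR1a and the glucanase the 3 flg15 arrays lay above the 3 NTC arrays of experiment 2. The 5 cases all rest on these same arrays, so they are not independent of each other. The NTC arrays of experiment 2 were lower than those of experiment 1 by 3.62 in the glucanase and 3.004 in PR1a. This difference enters each of the 5 values in full. Compared directly across experiments, the glucanase level was not higher after flg15. BP178 minus flg15 was 1.92, SA minus flg15 0.13, JA minus flg15 2.08 and ethylene minus flg15 2.10. For PR1a, SA minus flg15 was 0.22. What set the water controls apart was not tested. With 3 arrays per group, no group was large enough for the test of single outlying arrays.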

How the results depend on the processing

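The 48 comparisons of members were fitted 300 times under settings other than leaving out an array. Of these values 286 stayed on their side of the threshold (7 of them, not called, changed sign), 12 lost the call and 2 reversed. With 1 array left out, 331 of 360 stayed (13 of them, not called, changed sign), 26 lost the call and 3 gained it. Changes of the glucanase after BP178, JA and ethylene, and of PR1a after JA and ethylene, kept their calls under every setting run.

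PR1b1 after BP178 lost its call with values raised to the array median (0.83, below the fold threshold), in experiment 1 alone (1.37, adjusted p = 0.0504), with the 2 groups alone (1.37, adjusted p = 0.053) and at an adjusted p below 0.01 (1.37). PR1a after BP178 lost it with quantile normalization (1.56, adjusted p = 0.0644), with raised values (1.60, adjusted p = 0.0771), with the 2 groups alone (1.60, adjusted p = 0.146) and at an adjusted p below 0.01 (1.60). Against both NTC groups together, flg15 changed PR1a by 1.45 (adjusted p = 0.303) and the glucanase by 1.59 (adjusted p = 0.321), whereas the changes of experiment 1 grew, with PR1a at 3.10 after BP178, 3.81 after JA and 3.71 after ethylene, the glucanase at 3.52, 3.67 and 3.69, and, not called after SA, PR1a at 1.67 (adjusted p = 0.116) and the glucanase at 1.72 (adjusted p = 0.165). Against the NTC of experiment 1 alone, the flg15 changes turned to -0.049 in PR1a and -0.22 in the glucanase. The flg15 minus BP178 difference of the glucanase was 1.69 with raised values (adjusted p = 0.0511) and 1.69 with the replicate block (adjusted p = 0.0552). The block changed no other call of the 3 transcripts (BP178: PR1b1 adjusted p = 0.0453, PR1a 0.0174). The shifts in PR1a and the glucanase with both NTC groups, or with that of experiment 1, follow from the difference between the water controls. Causes of the other shifts were not tested.

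With each array left out, changes after BP178 ranged from 1.23 to 1.54 for PR1b1, from 1.41 to 1.98 for PR1a and from 1.53 to 1.95 for the glucanase. PR1b1 after SA ranged from 0.53 to 1.03, BP178 minus SA from 0.34 to 0.84, minus JA from 0.83 to 1.22 and minus ethylene from 0.88 to 1.10, and the glucanase in flg15 minus BP178 from 1.45 to 1.93.

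Of all probe sets, 84 were higher after BP178, and 41 with the 2 groups alone, 49 at an adjusted p below 0.01, 128 with both NTC groups and 47 to 80 with an array left out (47 without NTC array 2, 49 without BP178 array 2). Those lower numbered 9, and 15 with array weights and 5 at an adjusted p below 0.01 or with both NTC groups. After flg15, 148 were higher, and 88 in experiment 2 alone or with the 2 groups alone, and 554 against the NTC of experiment 1. Those lower numbered 26, and 40 with median centring, 15 with raised values, with experiment 2 alone or with the 2 groups alone, 52 with array weights, 8 at an adjusted p below 0.01, 108 with both NTC groups, 1031 against the NTC of experiment 1, and 7 to 151 with an array left out.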
